A study of Homo sapiens with 4 samples.

Results

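The TGF-beta and BMP pathway was examined in Hs578T cells through 57 genes chosen by name: ligands, latency proteins, receptors, secreted antagonists, SMAD proteins, inhibitors and targets. All 57 were found among the 60664 gene rows of the deposited table, each in 1 row. RNA-seq had been made from 4 libraries of Hs578T, an established human breast cancer line. The 2 empty libraries came from cells labelled as an empty group, called FLAG in the table, and the 2 TFCP2L1 libraries from cells made to overexpress TFCP2L1, which encodes a DNA-binding protein of the CP2 family known from embryonic stem cells. The vector, its promoter, the time after delivery and whether a pool or 1 clone was used are not given in the sources used here.

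In this pathway a secreted dimer of the TGF-beta superfamily brings together type II and type I serine/threonine kinase receptors, and the type I receptor phosphorylates SMAD proteins. TGF-beta and activin signal mainly through SMAD2 and SMAD3, BMPs through SMAD1, SMAD5 and SMAD9, and both branches share SMAD4. Some latency proteins hold TGF-beta in the matrix, and secreted antagonists bind BMPs or activins. Inhibitory SMADs and ubiquitin ligases restrain the signal inside the cell. In breast cancer lines of mesenchymal type, TGF-beta is best known for its part in matrix production and cell motility.

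The libraries held 18960674 to 26355502 estimated counts. For TFCP2L1 itself, empty libraries gave 12 and 19 counts and overexpressing ones 4623 and 5069, so the target went with the labels. Of 6 markers of a mesenchymal line all were expressed, with summed TPM of 7475 to 7921 in empty and 7729.8 to 7942 in TFCP2L1 libraries, 2 called higher and 4 lower, while CDH1 and EPCAM stayed at or under 1.03 TPM in each library. The summed TPM of 7 epithelial markers was 6.38 to 6.66 in empty and 8.06 to 8.55 in TFCP2L1 libraries, mostly GATA3, with FOXA1 called higher, and that of 5 immune markers 0.69 to 1.39 and 0.71 to 0.99. Of 3 markers of a packaging line, 2 were called lower, with sums of 12.7 to 13.7 and 0.77 to 0.89 TPM. These were NEFL, at 11.07 and 10.84 against 0.56 and 0.56 TPM, and NEFM, at 2.43 and 1.85 against 0.18 and 0.04 TPM. Both lie on chromosome 8, starting at 24950955 and 24913012. PAX2, the third, had 7 and 1 against 4 and 6 counts, did not pass the filter and was not tested. Whether any packaging-line RNA was present was not tested. Different dishes for the libraries of 1 group are not stated in the labels, and the p-values therefore rest on a spread that may be technical. No batch is labelled, and a batch matching the groups cannot be told apart from them. In bulk RNA, fewer expressing cells and less RNA per cell cannot be told apart either.

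After a filter on low counts, 49 of the 57 members could be tested, and 33 differed between the groups (edgeR quasi-likelihood test, adjusted p under 0.05 over 16544 genes). Of these, 15 were higher and 18 lower with TFCP2L1. Over all tested genes 47.5% were called, 23.5% higher and 23.9% lower, against 67.3% of the tested members. The members were chosen with earlier results of these data known, and the part of that choice in the higher share was not tested. The members were also more abundant, with a median of 36.4 CPM (depth-scaled counts) against 17.9 CPM over all tested genes, and the part of abundance in the higher share was not tested. Their median log2 fold change was -0.01, against -0.002 over all tested genes, and the median size of the change was 0.41 against 0.32. In 40 of the 49 the libraries of the groups did not overlap in CPM, against 73.7% of all tested genes. A log2 fold change of at least 1 in size was reached by 9 called members: SMAD3, SMAD9 and GDF15 were higher, and ACVRL1, BMP2, BMP8B, GDF6, NOG and CHRD lower. Over all tested genes 788 were called higher and 1511 lower by that much. CPM below compare 1 gene across libraries, and TPM, which also scale by transcript length, compare genes.

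**Figure D1:**
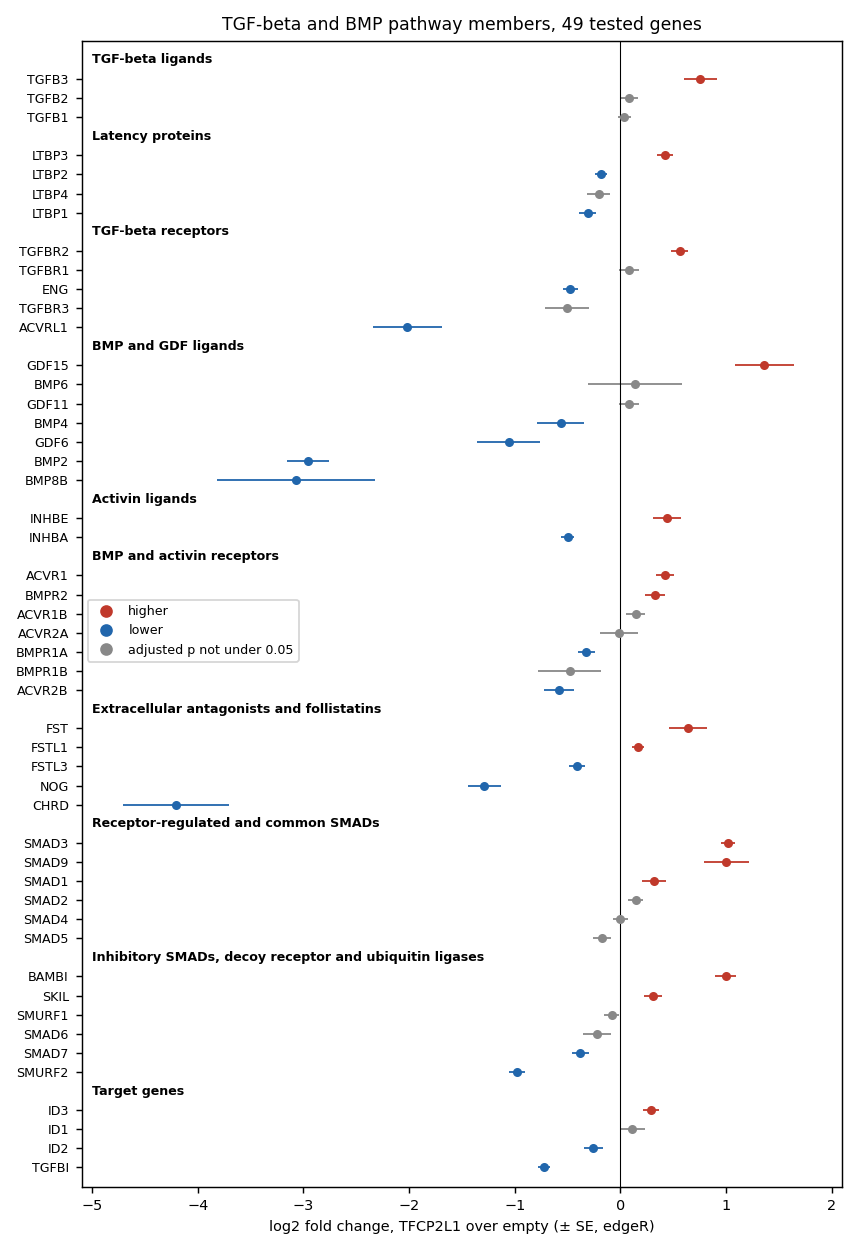
Log2 fold change of each of the 49 tested members, TFCP2L1 over empty, on the horizontal axis, grouped by role. Points are edgeR estimates, bars ± SE, red higher, blue lower and grey not called at an adjusted p under 0.05. CHRD at -4.21, BMP8B at -3.07 and BMP2 at -2.96 lie farthest to the left, and GDF15 at 1.36 farthest to the right.

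The start-site regions of 5 members are shown because these had the smallest p-values among members with a RefSeq promoter window, 3 lower and 2 higher. The RefSeq table (GRCh38.p14) held a window of 250 bases before to 50 after the start for 50 of the 57 members, and the 250 bases before the start that lies farthest 5′ in that table are printed here, 5′ to 3′ on the gene's strand. Capitals mark the GC-rich SMAD-binding letters GGCGCC and the SMAD-box letters CAGAC, read on both strands. The regions lie at chr15:67065352-67065601 (SMAD3, plus strand), chr5:136028738-136028987 (TGFBI, plus), chr17:64662308-64662557 (SMURF2, minus), chr10:28677271-28677520 (BAMBI, plus) and chr3:184379804-184380053 (CHRD, plus).
SMAD3: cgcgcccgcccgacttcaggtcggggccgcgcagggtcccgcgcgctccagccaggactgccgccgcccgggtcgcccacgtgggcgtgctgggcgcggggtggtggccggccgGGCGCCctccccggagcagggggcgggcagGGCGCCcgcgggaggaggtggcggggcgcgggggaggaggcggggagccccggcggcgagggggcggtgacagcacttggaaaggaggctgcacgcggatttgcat
TGFBI: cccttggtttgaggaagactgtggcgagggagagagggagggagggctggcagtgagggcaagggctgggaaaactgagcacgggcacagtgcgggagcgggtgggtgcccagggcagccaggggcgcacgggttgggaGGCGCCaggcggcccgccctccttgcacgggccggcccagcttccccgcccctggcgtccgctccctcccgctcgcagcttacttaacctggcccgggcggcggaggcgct
SMURF2: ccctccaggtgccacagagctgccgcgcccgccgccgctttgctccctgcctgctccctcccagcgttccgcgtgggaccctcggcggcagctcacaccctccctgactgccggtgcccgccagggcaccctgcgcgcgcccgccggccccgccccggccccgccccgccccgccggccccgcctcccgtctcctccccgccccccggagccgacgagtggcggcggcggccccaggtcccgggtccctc
BAMBI: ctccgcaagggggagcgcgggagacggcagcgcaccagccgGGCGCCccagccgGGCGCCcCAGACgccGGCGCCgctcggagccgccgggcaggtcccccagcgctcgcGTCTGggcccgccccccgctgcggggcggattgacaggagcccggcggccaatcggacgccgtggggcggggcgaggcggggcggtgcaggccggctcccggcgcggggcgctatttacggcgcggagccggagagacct
CHRD: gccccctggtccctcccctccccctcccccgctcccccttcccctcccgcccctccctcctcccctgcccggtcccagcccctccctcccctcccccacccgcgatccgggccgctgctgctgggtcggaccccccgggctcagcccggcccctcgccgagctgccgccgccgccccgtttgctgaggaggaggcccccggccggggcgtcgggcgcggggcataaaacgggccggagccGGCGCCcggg
In these stretches BAMBI held 3 matches to GGCGCC and 2 to CAGAC, SMAD3 2 to GGCGCC, and TGFBI and CHRD 1 each to GGCGCC. The printed 250 bases of SMURF2 held no match to these letters, while its whole window held 1 to CAGAC. The whole window of SMAD3 also held 1 to CAGAC, and further SMAD3 windows starting at 67166281 and 67137771 held 4 and 1. The motifs do not overlap each other in letters, and matches are descriptions of sequence, not sites. Counting a gene once over all its windows, GGCGCC was present for 20 of 50 members, which is 40%, and for 22% of 27305 genes. CAGAC was present for 56% of members and 50% of genes. A pair of CCAG half-sites, CCAGNNNNNNCCAG, one form of the motif described for TFCP2L1 in mouse embryonic stem cells, was present for 4 members, ACVR1, ACVR1B, LTBP3 and SMAD1, or 8%, and for 5% of genes. Members with several windows had more sequence in which a match could fall. The letters GGCGCC are all G or C, and the printed stretches held 72.8% (TGFBI) to 82.0% (SMURF2) G and C. Members and all genes were not matched for base composition, and its part in these shares was not tested.

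Of the TGF-beta ligands, TGFB3 rose and the more abundant TGFB1 and TGFB2 did not pass the test. TGFB1, the ligand most of the TGF-beta literature concerns, was read at 104.18 and 102.42 TPM in empty and 102.84 and 103.07 TPM in TFCP2L1 libraries, with a log2 fold change of 0.04 (SE 0.06, adjusted p = 0.633). TGFB2 measured 25.08 and 28.11 TPM against 31.93 and 26.86 TPM, and its libraries overlapped (log2 fold change 0.08, SE 0.08, adjusted p = 0.407). Without TFCP2L1 replicate 2 it was called at 0.18 (adjusted p = 0.0315). TGFB3 had 5.62 and 7.29 CPM in empty and 11.1 and 10.6 CPM in TFCP2L1 libraries. Both TFCP2L1 libraries lay above both empty ones, at 1.69-fold (log2 fold change 0.75, SE 0.16, adjusted p = 0.00125). Its share of the summed TPM of the 3 ligands was 1.82% and 2.47% in empty and 4.01% and 5.11% in TFCP2L1 libraries, while TGFB1 held 73.2% to 79.1% throughout.

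Latency proteins, some but not all of which bind the TGF-beta propeptide and anchor it to fibrillin-rich matrix, went both ways. LTBP3 had 75.5 and 65.2 CPM in empty and 94.7 and 94.4 CPM in TFCP2L1 libraries, a rise of 1.34-fold (log2 fold change 0.42, SE 0.08, adjusted p = 0.000373). LTBP1 went from 52.6 and 56.9 to 43.9 and 44.4 CPM (log2 fold change -0.31, SE 0.08, adjusted p = 0.00441). LTBP2 went from 185 and 191 to 166 and 165 CPM (-0.18, SE 0.06, adjusted p = 0.0157). For these 3 genes the groups did not overlap. LTBP4, at 18.7 and 17.6 against 14.8 and 16.7 CPM, did not overlap either but was not called (-0.20, SE 0.11, adjusted p = 0.141). The LTBP1 call was lost on TPM and without empty replicate 2, where the log2 fold change was -0.25. That of LTBP2 was lost on TPM, with no filter, at an adjusted p under 0.01 and without empty replicate 1 (-0.20) or 2 (-0.16). By TPM, LTBP3 was the most abundant of the 4 in TFCP2L1 libraries, with 47.3% and 45.6% of their sum against 37.6% and 33.8% in empty libraries, and LTBP2 held 31.0% and 34.6% in empty and 26.7% and 26.6% in TFCP2L1 libraries.

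Among TGF-beta receptors and co-receptors, TGFBR2 rose, and ENG and ACVRL1 fell. TGFBR2, which binds the ligand first, had 42.4 and 46.4 CPM in empty and 68.3 and 62.5 CPM in TFCP2L1 libraries, 1.47-fold higher (log2 fold change 0.56, SE 0.08, adjusted p = 5.73e-05). TGFBR1, the type I receptor that TGFBR2 activates, had 22.2 and 23.2 CPM against 23.99 and 23.9 CPM and did not pass the test (0.08, SE 0.09, adjusted p = 0.509). ENG, endoglin, a co-receptor known from endothelium, went from 122 and 137 to 91.6 and 94.4 CPM, 1.39-fold lower (-0.47, SE 0.07, adjusted p = 6.08e-05). ACVRL1, also called ALK1, is the type I receptor that works with endoglin in endothelial cells. It had 61 and 58 counts in empty and 13 and 22 counts in TFCP2L1 libraries, a depth-scaled ratio of 4.03-fold lower (exact 95% interval 2.74 to 6.06, counting error only; log2 fold change -2.02, SE 0.33, adjusted p = 0.000156). TGFBR3, betaglycan, which presents ligand to TGFBR2, had 5.32 and 5.39 CPM in empty and 4.40 and 3.17 CPM in TFCP2L1 libraries (-0.50, SE 0.21, adjusted p = 0.0613). Its libraries did not overlap, and it was called without TFCP2L1 replicate 1 (-0.75, adjusted p = 0.0191), with upper quartile scaling (adjusted p = 0.0492) and with limma-voom (adjusted p = 0.0479).

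The summed TPM of 4 endothelial markers was 9.53 to 12.6 in empty and 3.22 to 3.74 in TFCP2L1 libraries, and 2 of the 4 were called lower. PECAM1 made up nearly all of that sum, at 12.32 and 8.78 against 3.70 and 3.13 TPM, and was called lower. CDH5, VWF and KDR were at or under 0.64 TPM in each library, and of these VWF was called lower, at 0.16 and 0.64 against 0.02 and 0.02 TPM. The VWF call rested on 24 and 30 against 3 and 4 counts. CDH5 and KDR, with at most 5 counts a library, did not pass the filter and were not tested. A link between these markers and the fall of ENG and ACVRL1 was not tested.

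Of 12 BMP and GDF ligands listed, 7 could be tested: 4 fell, 1 rose and 2 were not called. That is 71.4% called, against 47.5% of all tested genes. BMP2, an inducer of bone and cartilage (ENSG00000125845; GRCh38, chromosome 20, 6767664 to 6780280, plus strand), had 10.7 and 9.83 CPM in empty and 1.30 and 1.34 CPM in TFCP2L1 libraries. The groups were far apart, and the depth-scaled count ratio was 7.83-fold lower (exact 95% interval 6.03 to 10.3; log2 fold change -2.96, SE 0.20, adjusted p = 2.37e-08). BMP4, a close relative of BMP2, went from 3.99 and 3.70 to 2.77 and 2.44 CPM (-0.56, SE 0.22, adjusted p = 0.0493). That call was lost in 8 of 13 alternatives, among them leaving out any 1 library (adjusted p from 0.0767 to 0.21 when a library was left out; 0.0402 to 0.329 over all alternatives).

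GDF6, a ligand of joint and skeletal development, had 2.36 and 2.33 CPM in empty and 1.26 and 0.99 CPM in TFCP2L1 libraries, 2.08-fold lower (log2 fold change -1.06, SE 0.30, adjusted p = 0.00916). Without TFCP2L1 replicate 2 the call was lost (log2 fold change -0.89), as it was on TPM and with DESeq2 (adjusted p = 0.137, the highest of 13 alternatives). BMP8B had 13 and 10 counts in empty and 1 and 2 in TFCP2L1 libraries, a ratio of 9.09-fold lower with an exact 95% interval of 2.75 to 47.3 (adjusted p = 0.00364; 0.084 with DESeq2, the highest of its 11 alternatives and 0.00287 the lowest). It shares much sequence with BMP8A, which had 5, 11, 6 and 5 counts, so the division of reads between these copies is uncertain. GDF15, a stress-induced ligand that signals through GFRAL rather than a BMP receptor, rose. Its 30 and 19 counts in empty and 71 and 78 counts in TFCP2L1 libraries gave a depth-scaled ratio of 2.56-fold (exact 95% interval 1.85 to 3.62; log2 fold change 1.36, SE 0.28, adjusted p = 0.0011).

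GDF11, a ligand close to myostatin, was the most abundant of these 12 by TPM, at 7.39 and 5.90 TPM in empty and 6.29 and 5.49 TPM in TFCP2L1 libraries. It did not pass the test (log2 fold change 0.08, SE 0.09, adjusted p = 0.498). BMP6, known from iron control in liver, had 16, 11, 19 and 16 counts and was not called (0.14, SE 0.44, adjusted p = 0.826). Of the members left untested, BMP7 had 5 to 9 counts a library, BMP5 and BMP3 at most 2, and GDF5 none in any library. The makeup of the summed TPM of the 12 ligands shifted: BMP2 held 22.4% and 22.8% in empty and 3.62% and 3.97% in TFCP2L1 libraries, and GDF15 11.04% and 8.12% against 28.4% and 30.8%.

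**Figure D2:**
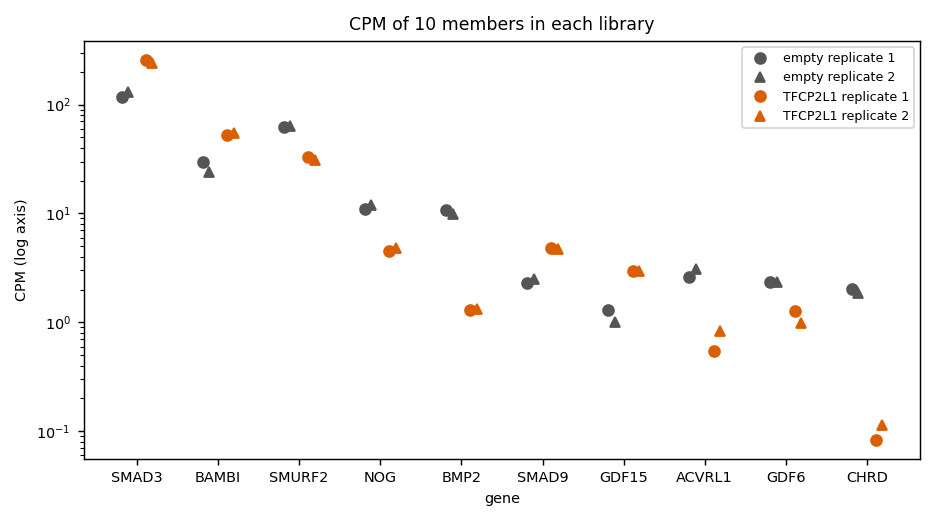
CPM on a log axis of 10 members in each of the 4 libraries, empty in grey and TFCP2L1 in orange, circles for replicate 1 and triangles for replicate 2. In every one of the 10 genes the libraries of the groups lie apart, CHRD with the widest gap at 2.02 and 1.85 against 0.084 and 0.11 CPM.

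Activin subunit genes moved in opposite directions. INHBA, whose product dimerises to activin A, had 225 and 236 CPM in empty and 169 and 157 CPM in TFCP2L1 libraries, 1.41-fold lower (log2 fold change -0.50, SE 0.06, adjusted p = 1.05e-05). By TPM it was the second most abundant ligand gene of the list after TGFB1, at 79.39 and 74.41 TPM in empty and 50.05 and 48.77 TPM in TFCP2L1 libraries. INHBE, known as a liver-type subunit, rose from 10.6 and 9.30 to 12.5 and 14.6 CPM (0.44, SE 0.13, adjusted p = 0.0139). The INHBE call was lost without empty replicate 2 (adjusted p = 0.0912), without TFCP2L1 replicate 2 (0.11), with DESeq2 (0.104) and on TPM (0.0853), and its adjusted p ran from 0.00277 to 0.11 over 13 alternatives. INHBB, the other main activin subunit, had 1 to 6 counts a library and was not tested.

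Receptors for BMPs and activins went both ways: 2 of 7 rose, 2 fell and 3 were not called, with log2 fold changes from -0.58 to 0.42. That is 57.1% called, against 47.5% of all tested genes. The median size of their log2 fold change was 0.325, against 0.322 over all tested genes. ACVR1, a type I receptor also called ALK2, rose from 28.8 and 26.9 to 36.7 and 37.9 CPM (0.42, SE 0.09, adjusted p = 0.000997). BMPR2, the main BMP type II receptor, had 42.2 and 44.3 CPM in empty and 59.9 and 48.5 CPM in TFCP2L1 libraries (0.32, SE 0.10, adjusted p = 0.0123). One TFCP2L1 library carried much of that difference: without TFCP2L1 replicate 1 the log2 fold change was 0.18 (adjusted p = 0.0867), and the call was lost also without empty replicate 1 (0.0656) and on TPM (0.143; 1.34e-05 to 0.143 over 13 alternatives). BMPR1A, also called ALK3, fell from 47.4 and 44.8 to 37.9 and 35.8 CPM (-0.32, SE 0.08, adjusted p = 0.00426), a call lost without empty replicate 1 (adjusted p = 0.0661) and on TPM (0.0797; 0.00102 to 0.0797 over all). ACVR2B, an activin type II receptor, fell from 10.6 and 11.9 to 7.34 and 7.67 CPM (-0.58, SE 0.14, adjusted p = 0.00352), lost on TPM (0.197) and with DESeq2 (0.0501; 0.00186 to 0.197 over all).

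ACVR1B, the type I activin receptor ALK4, had 23.996 and 23.0 CPM against 26.1 and 25.9 CPM (log2 fold change 0.14, SE 0.09, adjusted p = 0.212). ACVR2A, the other activin type II receptor, had 7.25 and 5.44 against 5.96 and 6.68 CPM (-0.01, SE 0.18, adjusted p = 0.957). BMPR1B, also called ALK6, differed more between the empty libraries, at 3.61 and 1.96 CPM, than from the TFCP2L1 libraries, at 1.93 and 2.099 CPM (-0.48, SE 0.30, adjusted p = 0.203), and it was called without empty replicate 2 (-0.83, adjusted p = 0.0313). Across the 12 receptor genes the summed TPM was 130.7 and 139.8 in empty and 132 and 123 in TFCP2L1 libraries. ENG held 46.2% and 48.4% of that sum in empty and 35.1% and 36.4% in TFCP2L1 libraries, and TGFBR2 10.02% and 11.4% against 17.5% and 17.4%.

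Of the secreted BMP antagonists among the members, CHRD and NOG fell. CHRD, chordin (ENSG00000090539; GRCh38, chromosome 3, 184380073 to 184390736, plus strand), which binds BMPs and keeps them from their receptors, had 47 and 35 counts in empty and 2 and 3 counts in TFCP2L1 libraries. That is a depth-scaled ratio of 19.4-fold lower, with an exact 95% interval of 8.002 to 61.5 for counting error (log2 fold change -4.21, SE 0.50, adjusted p = 9.43e-06). NOG, noggin (ENSG00000183691; GRCh38, chromosome 17, 56593699 to 56595590, plus strand), another BMP-binding antagonist, had 10.9 and 11.8 CPM in empty and 4.53 and 4.77 CPM in TFCP2L1 libraries. It was 2.44-fold lower, with no overlap (log2 fold change -1.29, SE 0.15, adjusted p = 9.28e-06). GREM1, gremlin, had 0, 1, 0 and 3 counts and was not tested. The summed TPM of NOG, CHRD and GREM1 was 9.66 and 10.6 in empty and 3.73 and 3.78 in TFCP2L1 libraries.

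Follistatins, which bind activins, went both ways. FSTL3 fell from 82.0 and 89.1 to 63.3 and 65.3 CPM (log2 fold change -0.41, SE 0.07, adjusted p = 0.000277). FST, follistatin itself, rose from 4.55 and 4.02 to 6.37 and 7.02 CPM (0.64, SE 0.18, adjusted p = 0.00851), a call lost without empty replicate 2 (adjusted p = 0.0544), with DESeq2 (0.0921) and on TPM (0.206; 0.00274 to 0.206 over 13 alternatives). By TPM, FSTL3 was the larger of these by far, so that the sum of both went from 58.9 and 59.9 TPM in empty to 46.8 and 45.2 TPM in TFCP2L1 libraries. FSTL1, a secreted follistatin-like glycoprotein of mesenchymal cells, had 393 and 388 CPM in empty and 449 and 429 CPM in TFCP2L1 libraries (0.17, SE 0.05, adjusted p = 0.0206). In TPM its libraries overlapped, at 126.46 and 116.53 against 153.31 and 117.25, and the call was lost on TPM (adjusted p = 0.448), without empty replicate 1 (0.145) or 2 (0.19) and with upper quartile scaling (0.0504; 0.000857 to 0.448 over all).

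SMAD3 had the smallest p-value of all members. SMAD3 (ENSG00000166949; GRCh38, chromosome 15, 67063763 to 67195195, plus strand), a receptor-activated SMAD of the TGF-beta and activin branch, had 118 and 129 CPM in empty and 258 and 242 CPM in TFCP2L1 libraries. Both TFCP2L1 libraries lay above both empty ones, at 2.03-fold (log2 fold change 1.02, SE 0.06, adjusted p = 1.41e-08). Tested genes of chromosome 15 had a median log2 fold change of 0.17, and the 10 tested genes on either side of SMAD3 a median of 0.14; the part of this in the SMAD3 value was not tested. SMAD2, its partner in that branch, had 67.4 and 66.4 CPM against 74.6 and 73.2 CPM, without overlap but not called (0.14, SE 0.07, adjusted p = 0.102). SMAD3 thus went from 37.2% and 41.0% of the summed SMAD2 and SMAD3 TPM in empty to 55.9% and 52.8% in TFCP2L1 libraries, and that sum from 85.0 and 84.4 to 132 and 118 TPM. Which of the 2 genes is the larger in empty libraries depends on the length scaling of TPM. In CPM, not scaled by length, SMAD3 lay above SMAD2 in both groups.

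SMAD9, the least abundant SMAD of the BMP branch, rose from 53 and 47 counts to 115 and 123 counts, 2.28 and 2.48 against 4.82 and 4.69 CPM (log2 fold change 1.00, SE 0.21, adjusted p = 0.00147; 0.055 on TPM, the highest of 13 alternatives, and 9.58e-05 the lowest). SMAD1 had 12.3 and 13.0 CPM in empty and 16.3 and 15.1 CPM in TFCP2L1 libraries (0.31, SE 0.11, adjusted p = 0.0342). The SMAD1 call was lost in 7 of 13 alternatives, among them without empty replicate 1 (adjusted p = 0.177), without empty replicate 2 (0.0642), without TFCP2L1 replicate 1 (0.121) and on TPM, where the log2 fold change was 0.10 (0.696; 0.022 to 0.696 over all). SMAD5 had 90.4 and 81.5 against 82.7 and 69.6 CPM, with overlap (-0.18, SE 0.09, adjusted p = 0.107), and was called without TFCP2L1 replicate 1 (-0.30, adjusted p = 0.00087). SMAD4, the common partner, was read at 73.5 and 71.4 CPM in empty and 76.1 and 68.9 CPM in TFCP2L1 libraries, a log2 fold change of -0.0005 (SE 0.07, adjusted p = 0.996).

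Inside the cell, inhibitors of the pathway went both ways. BAMBI (ENSG00000095739; GRCh38, chromosome 10, 28677342 to 28682939, plus strand), a decoy receptor without a kinase domain, had 30.0 and 23.996 CPM in empty and 52.7 and 55.3 CPM in TFCP2L1 libraries. It was 1.99-fold higher, with both TFCP2L1 libraries above both empty ones (log2 fold change 1.00, SE 0.10, adjusted p = 1.4e-06). SMURF2 (ENSG00000108854; GRCh38, chromosome 17, 64542295 to 64662068, minus strand), a ubiquitin ligase that marks SMADs and receptors for degradation, went from 61.6 and 63.6 to 32.8 and 30.7 CPM. The fall was 1.97-fold (-0.98, SE 0.08, adjusted p = 1.63e-07), with a wide gap between groups. SMURF1, its close relative, had 58.0 and 58.7 CPM against 55.7 and 54.6 CPM and was not called (-0.08, SE 0.07, adjusted p = 0.372). SMURF2 held 64.7% and 65.6% of the summed SMURF1 and SMURF2 TPM in empty and 47.0% and 47.5% in TFCP2L1 libraries.

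SMAD7, the inhibitory SMAD that TGF-beta itself induces, fell from 45.1 and 44.1 to 33.2 and 35.2 CPM (log2 fold change -0.38, SE 0.08, adjusted p = 0.00133). SMAD6, the inhibitory SMAD of the BMP branch, had 11.7 and 11.4 CPM in empty and 10.7 and 9.16 CPM in TFCP2L1 libraries and was not called (-0.22, SE 0.13, adjusted p = 0.194). SKIL, also called SnoN, a co-repressor of SMAD complexes and itself a TGF-beta target, rose from 43.4 and 42.7 to 57.4 and 49.3 CPM (0.31, SE 0.09, adjusted p = 0.00901). It rested in part on 1 library: the log2 fold change was 0.20 without TFCP2L1 replicate 1 (adjusted p = 0.0429), and the call was lost on TPM (0.212, the highest of 13 alternatives, with 8.21e-05 the lowest).

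Target genes in the list moved in different directions. TGFBI (ENSG00000120708; GRCh38, chromosome 5, 136028895 to 136063818, plus strand), a secreted matrix protein named for its induction by TGF-beta, was the most abundant member, with 2089.3 and 2249.32 TPM in empty and 1341.82 and 1321.49 TPM in TFCP2L1 libraries. In CPM it went from 3113 and 3338 to 1936 and 1970.0, 1.65-fold lower with no overlap (log2 fold change -0.72, SE 0.06, adjusted p = 8.81e-08). The ID genes encode helix-loop-helix proteins that block the DNA binding of basic helix-loop-helix factors and are direct targets of BMP signalling. ID3 had 85.0 and 85.6 CPM in empty and 96.5 and 112 CPM in TFCP2L1 libraries (0.29, SE 0.08, adjusted p = 0.00537), and 0.18 without TFCP2L1 replicate 2 (adjusted p = 0.0214). ID1 had 55.4 and 41.5 CPM in empty and 51.2 and 54.0 CPM in TFCP2L1 libraries, so that the TFCP2L1 libraries lay between the empty ones (0.11, SE 0.12, adjusted p = 0.469), and it was called without empty replicate 1 (0.34, adjusted p = 0.0211). ID2 fell from 41.6 and 37.7 to 31.2 and 35.1 CPM (-0.26, SE 0.09, adjusted p = 0.0289), a call lost without empty replicate 1 (0.27), without TFCP2L1 replicate 1 (0.14) and with DESeq2 (0.16; 0.00395 to 0.27 over 13 alternatives). ID4 had 1 count in all 4 libraries together and was not tested.

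**Figure D3:**
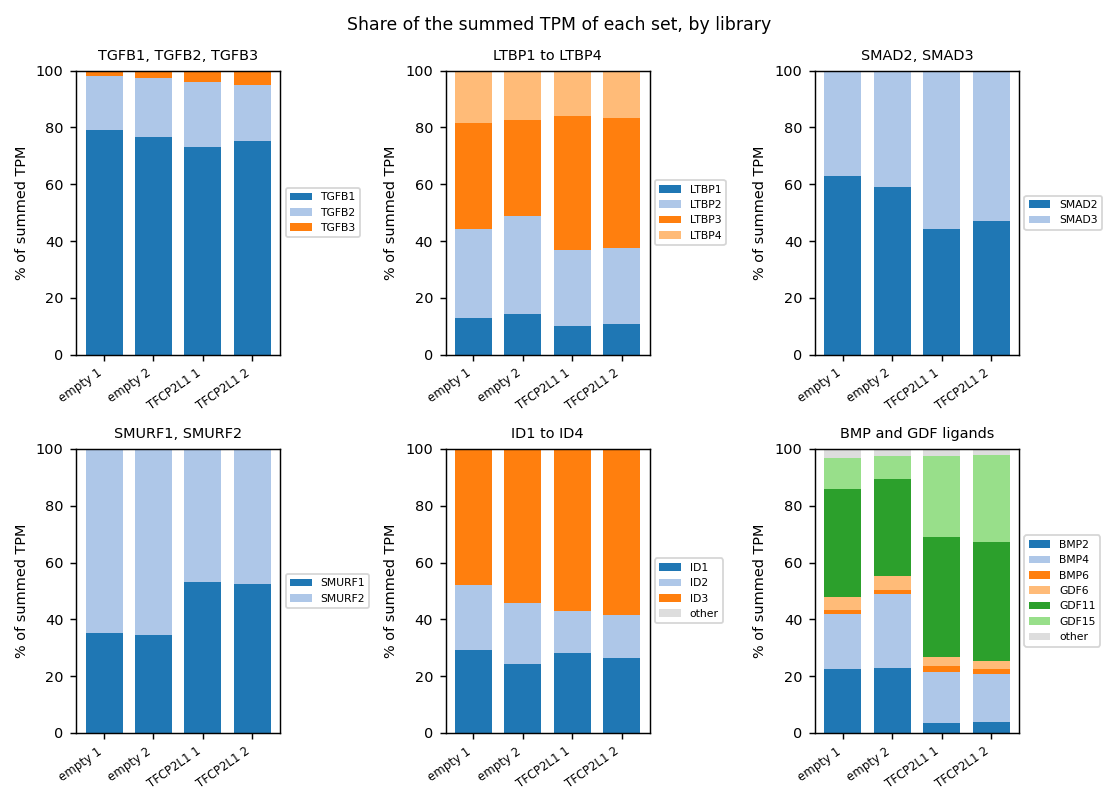
Share in percent of the summed TPM of 6 sets of members, 1 stacked bar per library, with genes under 2% in each library joined as other. By TPM, SMAD3 passes SMAD2 in both TFCP2L1 libraries, at 55.9% and 52.8%, SMURF2 drops under SMURF1, and BMP2 shrinks while GDF15 widens. In CPM, not scaled by length, SMAD3 lay above SMAD2 in every library.

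In the authors' deposited table, 25 of the 57 members had an adjusted p under 0.05, 12 higher and 13 lower, and all 25 were called here in the same direction. Those calls come from the counts used here and are no independent check.

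**Figure D4:**
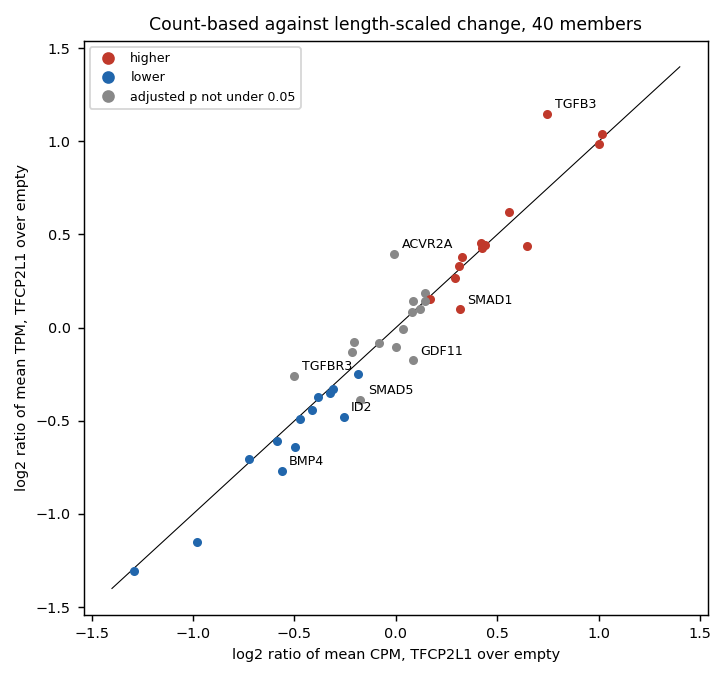
Log2 ratio of mean TPM against log2 ratio of mean CPM, TFCP2L1 over empty, for 40 members with at least 50 counts and 0.5 TPM in each library, with the line of equal values. Colours are the calls made on counts; ACVR2A, TGFB3 and TGFBR3 stand above the line, and ID2, SMAD1, SMAD5, GDF11 and BMP4 below it.

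Beyond the members, 146 other genes of the pathway were listed, of which 111 could be tested. Of these 23 rose and 37 fell, 54.1% called against 47.5% of all tested genes, with a median log2 fold change of -0.11. Among genes of latency and activation 1 of 20 tested rose and 8 fell, 45% called. Integrin beta subunits, some of which form receptors for latent TGF-beta, were among those that fell: ITGB8 went from 7.56 ± 0.90 to 1.03 ± 0.27 CPM (SD over the 2 libraries), ITGB5 from 438 ± 0.79 to 302 ± 19.2 CPM and ITGB3 from 89.8 ± 1.78 to 62.1 ± 4.42 CPM. THBS1, thrombospondin 1, a matrix protein that can activate latent TGF-beta, was the 1 that rose, from 2674 ± 62.1 to 3425 ± 268 CPM. Of 4 further ligands tested, edgeR, DESeq2 and limma-voom each called 0, and 0 had an unadjusted p under 0.05 in edgeR.

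Of 6 further receptors and co-receptors tested, 1 rose and 2 fell, 50% called against 47.5% of all tested genes. RGMB, a BMP co-receptor also called DRAGON, fell from 133 ± 3.22 to 67.8 ± 3.45 CPM (log2 fold change -0.97, SE 0.07, adjusted p = 3.08e-08). NEO1, neogenin, a receptor for RGM proteins, rose from 2.98 ± 0.20 to 6.52 ± 0.69 CPM (adjusted p = 0.000274). In TPM the NEO1 difference was 0.07 on the log2 scale and was not called (adjusted p = 0.91). CD109, a TGF-beta co-receptor, fell from 93.4 ± 0.73 to 72.0 ± 8.03 CPM, lost on TPM (adjusted p = 0.0909). Of 7 further antagonists tested, 2 rose and 2 fell, 57.1% called. CRIM1 rose from 257 ± 3.50 to 325 ± 33.3 CPM and NBL1 from 38.3 ± 1.76 to 48.2 ± 1.18 CPM, while CHRDL1, chordin-like 1, fell from 52.9 ± 1.79 to 42.8 ± 1.47 CPM and TWSG1 from 88.7 ± 4.87 to 74.5 ± 1.80 CPM. The calls of NBL1 (log2 fold change 0.29) and CHRDL1 (-0.27) were lost without empty replicate 1 and that of TWSG1 (-0.19) without empty replicate 2. With limma on TPM those of CHRDL1 (adjusted p = 0.0509) and TWSG1 (0.0986) were lost too.

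Intracellular regulators split, 7 of 29 tested higher and 6 lower, 44.8% called against 47.5% of all tested genes. PMEPA1, a TGF-beta-induced protein that sequesters SMAD2 and SMAD3, fell from 175 ± 4.72 to 97.6 ± 0.30 CPM. The co-repressor TGIF1 rose from 23.0 ± 2.26 to 46.4 ± 0.24 CPM, a log2 fold change of 1.02 (SE 0.09, adjusted p = 4.63e-07). USP11, a deubiquitinase, rose from 76.2 ± 4.27 to 117 ± 5.67 CPM and TOB1, an antiproliferative protein that binds BMP SMADs, from 8.38 ± 0.41 to 16.3 ± 0.49 CPM.

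Of 34 TGF-beta targets tested 27 were called, 79.4% against 47.5% of all tested genes, with 11 higher, 16 lower and a median log2 fold change of -0.10. This list was chosen with earlier results of these data known, and the part of abundance in its share was not tested. The targets moved apart: LOX and ACTA2 rose (log2 fold changes 2.27, SE 0.07, and 2.74, SE 0.10) while COL1A2 and JUNB fell (-1.88, SE 0.07, and -1.78, SE 0.07). Several of these genes also answer to other signals. Of 12 BMP targets tested, 1 rose and 4 fell, 41.7% called against 47.5% of all tested genes. RUNX2, the osteoblast transcription factor, rose from 25.9 ± 0.95 to 58.4 ± 1.89 CPM, whereas the homeobox genes DLX3, MSX2 and MSX1 fell, from 1.56 ± 0.26 to 0.14 ± 0.08, from 2.14 ± 0.72 to 0.23 ± 0.16 and from 7.93 ± 0.22 to 4.46 ± 0.58 CPM.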

How the data were processed

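RNA was taken with Trizol, per the labels' protocols, and sequenced in 4 libraries. The authors deposited estimated counts per gene without scaling, per the file headers, and TPM per library beside them, per the file headers. The deposited ratio (fold change), log2 fold change, p-value and adjusted p-value of the authors come from DESeq2, per the name of their workbook. Bowtie 0.12.2 and mm9 are named in the submitters' processing notes, but mm9 is a mouse build and the table has human Ensembl IDs, so these notes were not taken to describe it, and aligner, counter, strand use and annotation are not given in the sources used here. Without strand, reads of overlapping genes cannot be told apart.

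Rounded counts went into edgeR 4.0.16 under R 4.3.3 (TMM, filterByExpr with a minimum count of 10, robust glmQLFit and glmQLFTest, Benjamini-Hochberg over 16544 genes, threshold 0.05). Each standard error is the size of the log2 change over the square root of its F statistic. With 2 libraries against 2 an exact permutation test cannot give a p below 0.33, so none was run. CPM use TMM-scaled library sizes. Depth was 18960674 to 26355502 counts, and exact 95% intervals on counts cover counting error only. Gene positions are from GENCODE 29 (GRCh38), matched by ID.

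The members, lists and rules were chosen with earlier results of these data known. By rule, called members reaching 1 CPM in either group's mean are given by library, members not called by log2 fold change or range, the rest by counts, and up to 4 called genes per heading of the other list by smallest p. PMEPA1 stood under 2 headings of that list and was counted once in its total. Alternatives were other scalings, filters, thresholds, DESeq2 1.42.0, limma-voom (limma 3.58.1), each library left out and, chosen after seeing the data, limma on log2(TPM + 0.1). The fit was run on simulated data with a fixed dispersion and a far smaller share of changed genes than was called here. That run therefore does not measure the error rate of the fit on these data.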

Additional observations from a re-analysis of the deposited data

How the results depend on the processing

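Of 33 called members, 18 kept their call and direction in each alternative other than the fold minimum in which they were fitted (8 higher, 10 lower), 15 lost the call in at least 1, and 0 members changed sign while called. With a log2 fold minimum of 1, 3 members were higher and 6 lower, 7 and 10 of the other pathway genes, and 2299 of all genes. On the deposited TPM, 8 members were higher and 13 lower, and 5175 of all genes were called. Leaving out 1 library gave 11 to 15 members higher and 13 to 18 lower, 18 to 25 and 32 to 41 of the other pathway genes, and 5953 to 7858 of all genes. In these fits the library left alone in its group is assumed to vary like the other group. Other scalings moved the median gene by at most 0.03 (log2). DESeq2 called 12 members higher and 13 lower, and 5684 of 19106 genes in all. No paired analysis was possible because the labels number the libraries 1 to 4 without a number shared between groups. Depth limits the 8 untested members and BMP8B, CHRD and ACVRL1, whose values rest on few counts.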

Other observations

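TPM divide by transcript length and counts do not. The log2 ratio of counts to TPM, set against the median gene of each library, could be computed for 40 members (at least 50 counts and 0.5 TPM in each library), and its shift between groups had a median size of 0.03 over these members and 0.04 over 11922 genes. ACVR2A had the largest shift, -0.42. Its CPM did not separate the groups (7.25 and 5.44 against 5.96 and 6.68), while its TPM was higher in both TFCP2L1 libraries (3.14 and 3.35 against 2.87 and 2.06). TGFB3 shifted by -0.41, with one TFCP2L1 library at 0.23 and the other at -0.23 against 0.47 and 0.35 in empty libraries, so that its rise was larger in TPM than in CPM. In the other direction GDF11 shifted by 0.25, ID2 by 0.21, SMAD1 and SMAD5 by 0.20 each and BMP4 by 0.19. TGFBR3 shifted by -0.27. In this ratio the groups did not overlap for ACVR2A, TGFB3, GDF11, ID2 and SMAD1, and overlapped for TGFBR3, SMAD5 and BMP4. No test was made of this shift.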
